A study of Mus musculus with 16 samples.

Results

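Oxysterols are oxygenated forms of cholesterol that steer immune cells through tissue. Cholesterol 25-hydroxylase, encoded by Ch25h, makes 25-hydroxycholesterol, and the oxysterol hydroxylase encoded by Cyp7b1 converts it to 7α,25-dihydroxycholesterol. That lipid is the ligand of the receptor GPR183, also called EBI2, which guides B cells, T cells and dendritic cells in lymphoid tissue. The dehydrogenase encoded by Hsd3b7 removes the ligand, and Cyp27a1 encodes a mitochondrial sterol hydroxylase that makes other oxysterols and acts in bile acid synthesis. These 5 genes, 4 enzymes and 1 receptor, were named by their place in the pathway, with earlier results of these data known. All 5 were found among the 53465 genes in the count table. Their levels were followed across 16 MC38 tumors.

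MC38 is a mouse colorectal carcinoma line, grown here from 1000000 cells injected under the skin of the right flank of female C57BL/6 mice aged 6 to 8 weeks. Mice with tumors of 150 to 250 mm3 on day 16 were randomized to control IgG (n = 8) or to an antibody against the checkpoint receptor PD-1 (aPD-1, n = 8), at 200 µg on days 16 and 20, and tumors were taken on day 21. The labels divide the aPD-1 tumors into 6 non-responders and 2 responders, a status the authors assigned after treatment from staining for CD8 T cells in another piece of each tumor. T cell content is therefore part of how the responder group was defined. Each tumor came from a different mouse, so replicates are mice, all carrying the same single cell line.

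Poly(A) RNA from 2 sections of 100 µm of the frozen piece of each tumor was sequenced, and the tumors had between 26603449 and 39948866 counts. Some features of the libraries touch the results. Mitochondrial genes gave 5.73 to 7.60% of counts in 3 tumors (IgG replicate 1 and non-responder replicates 9 and 14) and 2.52 to 3.25% in the other 13. In IgG replicate 3, a single gene, CT010467.1, gave 20.4% of counts, against 0.15 to 0.49% in the other 15 tumors. In addition, both responder tumors stood apart in their cell markers: summed B cell markers reached 396 and 1532 counts per 1000000 scaled counts (CPM) against 3.73 to 14.1 in the other 14 tumors, T cell markers 296 and 311 against 11.5 to 44.2, and fat cell markers 293 and 1658 against 1.16 to 92.4. Epithelial markers, which a carcinoma line might carry, summed to 4.43 to 12 CPM in the 14 IgG and non-responder tumors, most of it from Cdh1 (3.75 to 8.12 CPM), while the keratin gene Krt8 reached at most 1.37 CPM and Epcam 0.94 CPM. In the responders they summed to 122 and 52.2 CPM. In bulk RNA, fewer cells of a type and less RNA per cell cannot be told apart.

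Between responders and non-responders, the receptor gene Gpr183 was higher and Ch25h, the first enzyme gene of the pathway, was lower. Without responder replicate 15 the log2 fold change of Ch25h was still -0.83, but it no longer met the threshold on adjusted p. The sequence upstream of each gene is shown because of these differences. RefSeq promoter entries, 250 bases before to 50 bases after the start, were found for 4 of the 5 genes. The capitals in the Ch25h promoter (GRCm38.p6, chr19:34475099-34475398, minus strand) mark a palindromic cAMP response element, TGACGTCA. The capitals in the Gpr183 promoter (GRCm38.p6, chr14:121965144-121965443, minus strand) mark the reverse complement of the Ets core GGAAGT.
Ch25h: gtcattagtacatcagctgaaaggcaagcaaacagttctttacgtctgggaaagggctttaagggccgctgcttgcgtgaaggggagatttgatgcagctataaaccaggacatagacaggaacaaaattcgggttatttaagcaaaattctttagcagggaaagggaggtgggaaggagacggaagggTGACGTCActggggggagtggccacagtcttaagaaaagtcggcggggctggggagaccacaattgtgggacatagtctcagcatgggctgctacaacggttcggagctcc
Gpr183: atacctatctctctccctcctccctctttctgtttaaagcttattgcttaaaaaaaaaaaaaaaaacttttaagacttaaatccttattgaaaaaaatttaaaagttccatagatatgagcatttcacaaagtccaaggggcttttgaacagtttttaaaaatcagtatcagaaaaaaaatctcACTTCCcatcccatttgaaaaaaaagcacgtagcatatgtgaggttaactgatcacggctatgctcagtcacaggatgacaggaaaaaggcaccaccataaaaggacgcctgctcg
Both strands of the 4 promoters were searched for those 2 motifs and for GAAANNGAA, found in interferon response elements. The cAMP response element was found in 1.79% of the 32817 promoters searched, the Ets core in 23.8% and the interferon element in 8.55%. The interferon element matched in none of the 4 promoters, and the Hsd3b7 and Cyp27a1 promoters matched none of the 3 motifs. The Ch25h promoter had 51.0% G and C and the Gpr183 promoter 35.3%.

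Genes of different length were compared by CPM per kilobase of annotated exon. Ch25h was the most abundant of the 5 on this scale, at 25.6 ± 6.03 CPM per kilobase (SD, n = 16 tumors), followed by Hsd3b7 at 14.7 ± 3.76, Cyp27a1 at 4.06 ± 1.31, Gpr183 at 2.79 ± 1.51 and Cyp7b1 at 1.08 ± 1.56. In all 14 IgG and non-responder tumors, the 5 genes kept this order within the tumor. Across tumors the ranges of neighbours in the order overlapped, with 16.4 to 33.3 CPM per kilobase for Ch25h and 9.61 to 21.8 for Hsd3b7, and 2.57 to 6.88 for Cyp27a1, 1.67 to 7.60 for Gpr183 and 0.088 to 6.61 for Cyp7b1, whereas Hsd3b7 lay above Cyp27a1 without overlap. The responders departed from the order. Gpr183 lay above Cyp27a1 in 2 of 2 responder tumors and in 0 of the other 14, and Ch25h lay above Hsd3b7 in only 1 of the 2. The place of Hsd3b7 depends on the length used for it, because its 13 annotated transcripts are short relative to their union: by mean transcript length its level was 36.7 CPM per kilobase, and Ch25h then lay above it in only 1 of 16 tumors, IgG replicate 3.

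The first enzyme, Ch25h, is a gene of a single exon of 1387 bases on chromosome 19 (GRCm38, 34473778 to 34475164, minus strand). Its CPM in the 8 IgG tumors had a lowest value of 23.8, a median of 33.2 and a highest value of 43.7. The 6 non-responders ran from 36.3 through a median of 43.6 to 46.2, and the 2 responders had 22.7 and 25.3. Both responders thus lay below every non-responder, while 2 IgG tumors, at 23.8 and 23.9 CPM, lay among the responder values. Ch25h was 1.79-fold lower in responders than in non-responders, with a log2 fold change of -0.84 ± 0.20 (SE) and an adjusted p of 0.00679 by edgeR's quasi-likelihood test over all 18251 genes tested. Against IgG the log2 fold change was -0.46 ± 0.19, with an adjusted p of 0.103. A fall of this kind was less common among all genes than a rise: 4.34% of the genes tested passed as lower in responders than in non-responders and 15.4% as higher, and 13.2% had both responders below all non-responders. With responder replicate 15 left out the log2 fold change was -0.83, but the adjusted p became 0.103, and without IgG replicate 4 the comparison with IgG passed (log2 fold change -0.51, adjusted p 0.0485).

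Cyp7b1, which makes the GPR183 ligand from 25-hydroxycholesterol, lies on chromosome 3 (GRCm38, 18071950 to 18243338, minus strand). It was the scarcest and most variable of the 5 genes. The IgG tumors ran from 0.19 through a median of 1.09 to 2.30 CPM, and the non-responders from 0.44 through 1.17 to 3.28 CPM. The responders had 14.3 CPM (replicate 15) and 4.02 CPM (replicate 16), both above all the other 14 tumors, but the second was close to the highest non-responder. Of all genes tested, 21.5% had both responders above all non-responders and 19.3% above all IgG tumors. These levels rested on 5 to 119 reads in the 14 tumors and on 484 and 143 reads in the responders. Even without the responders Cyp7b1 differed 17.3-fold between the highest and lowest tumor, against 1.88-fold for Gpr183 and 1.94-fold for Ch25h. The spread of Cyp7b1 was 7.46-fold without IgG replicate 1, the lowest tumor, and 5.48-fold without the 3 tumors of high mitochondrial share. Cyp7b1 was 5.46-fold higher in responders than in non-responders (log2 fold change 2.45 ± 0.66, edgeR adjusted p 0.0139) and 8.14-fold higher than in IgG tumors (3.03 ± 0.61, adjusted p 0.00146). Replicate 15 carried both calls. Without it the log2 fold change was 1.20 against non-responders (adjusted p 0.555) and 1.77 against IgG (adjusted p 0.237).

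Gpr183, the receptor, lies on chromosome 14 (GRCm38, 121952551 to 121965195, minus strand). Its CPM was 5.93 to 9.08 in the IgG tumors, with a median of 6.80, and 4.82 to 7.47 in the non-responders, with a median of 6.23. The responders had 21.9 and 14.9 CPM. Both responders were thus higher than every other tumor, with a wide gap to the nearest, IgG replicate 7 at 9.08 CPM. Lack of overlap alone was common, with both responders above all non-responders for 21.5% of genes tested and above all IgG tumors for 19.3%. As higher in responders, 15.4% of genes passed against non-responders and 17.7% against IgG. Gpr183 was 3.05-fold higher in responders than in non-responders (log2 fold change 1.61 ± 0.19, edgeR adjusted p 8.79e-06) and 2.62-fold higher than in IgG tumors (1.39 ± 0.18, adjusted p 1.79e-05). Gpr183 passed in both comparisons when either responder was left out, with log2 fold changes of 1.23 and 1.81 against non-responders and of 1.01 and 1.59 against IgG. The comparisons with non-responders and with IgG share the same 2 responder tumors, so they do not count as separate evidence.

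**Figure D1:**
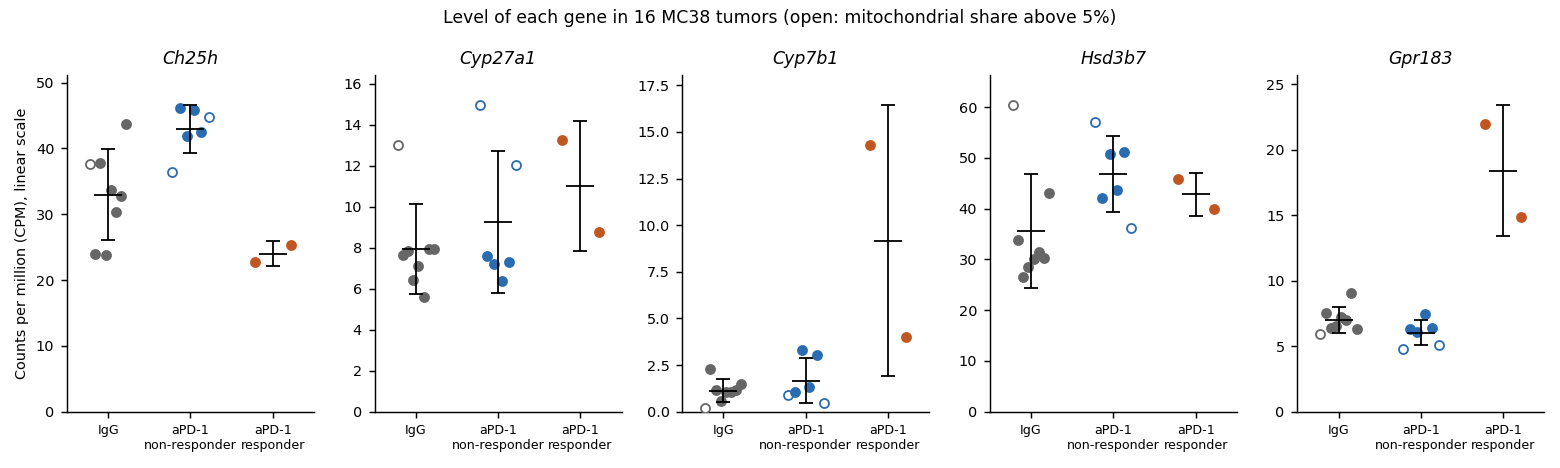
CPM on a linear axis from 0 (y) for Ch25h, Cyp27a1, Cyp7b1, Hsd3b7 and Gpr183 in the IgG, non-responder and responder groups (x), where each point is a tumor, open points are the 3 tumors with a mitochondrial share of 5.73 to 7.60%, and bars give mean ± SD. Both responders lie below all non-responders for Ch25h and above all 14 other tumors for Cyp7b1 and Gpr183, and the 3 open points are the highest IgG and non-responder values for Cyp27a1.

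Hsd3b7, which clears 7α-hydroxylated oxysterols, lies on chromosome 7 (GRCm38, 127800604 to 127803802, plus strand). The IgG tumors ran from 26.6 through a median of 30.9 to 60.4 CPM, the non-responders from 36.1 through 47.2 to 57.0 CPM, and the responders had 45.9 and 39.9 CPM. The lowest of these values came from IgG replicate 3. The responders lay inside the range of both other groups. Without the 3 tumors of high mitochondrial share, the IgG range ended at 43.1 CPM, below responder replicate 15, and the non-responder range began at 42.1 CPM, above responder replicate 16. Against non-responders the responders had a log2 fold change of -0.13, with a 95% interval of -0.67 to 0.42 and an adjusted p of 0.801, and against IgG of 0.27 (-0.24 to 0.78, adjusted p 0.480). Its exons share 1717 bases with the gene Gm49388 on the same strand and 1729 bases with 9430064I24Rik on the opposite strand. Those genes were assigned 0 to 11 and 67 to 279 reads, against 711 to 1989 for Hsd3b7, and how reads were divided between them was not tested. Ch25h shares 159 exon bases with Gm26902 on the opposite strand, which had 51 to 167 reads.

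Cyp27a1, the mitochondrial sterol hydroxylase, lies on chromosome 1 (GRCm38, 74713574 to 74737892, plus strand). The IgG tumors ran from 5.58 through a median of 7.74 to 13 CPM, the non-responders from 6.38 through 7.46 to 15 CPM, and the responders had 13.3 and 8.77 CPM. The highest IgG tumor and the 2 highest non-responders were the 3 tumors with a high mitochondrial share, at 12.1 to 15 CPM, and the other 11 tumors lay between 5.58 and 7.93 CPM. With all tumors, the log2 fold change in responders was 0.25 against non-responders (95% interval -0.43 to 0.94, adjusted p 0.663) and 0.48 against IgG (-0.18 to 1.13, adjusted p 0.310). Without the 3 tumors, an alternative chosen after the data were seen, Cyp27a1 passed as higher in responders in both comparisons, by 0.57 on the log2 scale against non-responders (adjusted p 0.0250) and by 0.56 against IgG (adjusted p 0.0137). In these 2 comparisons 5805 and 7427 of all 18251 genes then passed in either direction, against 3599 and 4175 with all tumors. The same 3 tumors had 4.82 to 5.93 CPM of Gpr183 against 6.11 to 9.08 in the other 11, and summed macrophage markers of 1482 to 1736 CPM against 1982 to 3006. The 19 further oxysterol and bile acid enzymes and carriers described below summed to 271 to 391 CPM in these 3 tumors, against 440 to 507. Summed markers of proliferation (1293 to 1451 CPM against 1628 to 2217) were also lower without overlap. So were those of plasma cells (151 to 172 against 200.0 to 237) and of blood endothelium (43.3 to 70.3 against 70.5 to 181). Hepatocyte markers overlapped, at 0.30 CPM in IgG replicate 1, 6.56 in non-responder replicate 9 and 95.5 in non-responder replicate 14. The other 11 tumors had 0 to 3.12 CPM of them. Summed B cell, T cell, dendritic cell, fibroblast and both kinds of interferon response markers, among others, overlapped between the 3 tumors and the other 11. How many of all genes separate these 3 tumors without overlap was not tested. The part of RNA quality or of any of these cells in the Cyp27a1 result was not tested.

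In all, 3 of the 5 genes passed between responders and non-responders, 2 higher and 1 lower, where 19.7% of all genes passed. Between responders and IgG 2 of the 5 passed, both higher, where 22.9% of all genes passed and 17.7% passed as higher. With 2 tumors in the responder group, an exact permutation test could not give a two-sided p below 0.0357 against the 6 non-responders or 0.0222 against the 8 IgG tumors. Ch25h, Cyp7b1 and Gpr183 were at the first limit and Cyp7b1 and Gpr183 at the second, and over the 20 exact tests each of these had an adjusted p of 0.0966.

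**Figure D2:**
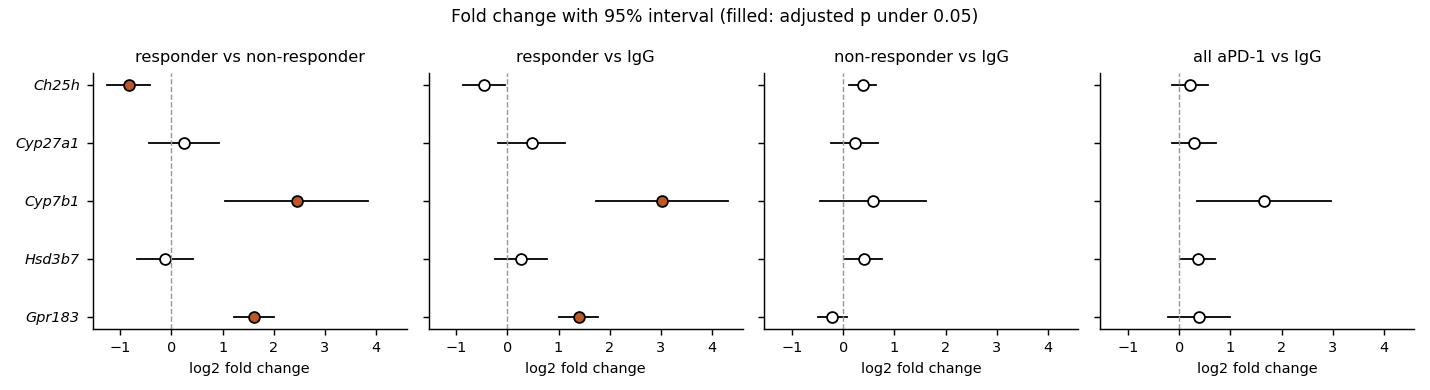
Log2 fold change (x) with its 95% interval for the 5 genes (y) in the 4 comparisons, from edgeR, where filled points have an adjusted p under 0.05. Gpr183 is at 1.61 and 1.39 and Cyp7b1 at 2.45 and 3.03 in the comparisons of responders, Ch25h is at -0.84 against non-responders, and no point is filled in the comparisons of non-responders or of all aPD-1 tumors with IgG.

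Non-responders were compared with IgG as the treated tumors without a rise in CD8 T cells. None of the 5 genes passed, and 0 of all 18251 genes did (0.0%) by edgeR, with 694 at an unadjusted p under 0.05 (3.80%) and 10 passing by DESeq2. Ch25h was 1.3-fold higher in non-responders (log2 fold change 0.38, 95% interval 0.12 to 0.65, adjusted p 0.987) and Hsd3b7 1.32-fold higher (0.40, 0.04 to 0.75, adjusted p 0.987). Of the 6 non-responders, 5 had more Ch25h than all IgG tumors but 1. The log2 fold change was 0.58 for Cyp7b1 (-0.46 to 1.61), 0.22 for Cyp27a1 (-0.24 to 0.68) and -0.22 for Gpr183 (-0.50 to 0.07). By the exact permutation test, two-sided, Ch25h had p = 0.0110 and Hsd3b7 p = 0.0386, each with an adjusted p of 0.0966 over the 20 tests. Without IgG replicate 1 Hsd3b7 passed by the exact permutation test, with an adjusted p of 0.0291 here and of 0.0280 between all aPD-1 tumors and IgG. Cyp27a1 changed sign, to -0.01, without the 3 tumors of high mitochondrial share.

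Treatment itself, all 8 aPD-1 tumors against 8 IgG tumors, was the randomized contrast. No gene of the pathway passed, and again 0.0% of all genes did by edgeR, with 2463 genes (13.5%) at an unadjusted p under 0.05 and 134 passing by DESeq2. The log2 fold changes were 1.66 for Cyp7b1 (95% interval 0.35 to 2.96, adjusted p 0.245), 0.37 for Hsd3b7 (0.04 to 0.69, adjusted p 0.308), 0.38 for Gpr183 (-0.22 to 0.98), 0.29 for Cyp27a1 (-0.14 to 0.72) and 0.21 for Ch25h (-0.13 to 0.56). Without responder replicate 15 the log2 fold change was 0.82 for Cyp7b1 (edgeR adjusted p 0.780) and 0.03 for Gpr183 (adjusted p 0.992). Without responder replicate 16 it was 1.60 for Cyp7b1 (edgeR adjusted p 0.454) and 0.22 for Gpr183 (adjusted p 0.834).

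The balance of the enzymes was also read within each tumor, as the log2 ratio of 2 transcripts, in which the scaling of the library cancels apart from the prior count of 2. The log2 ratio of Ch25h to Cyp7b1, the enzymes that act in sequence on the way to the ligand, was 5.01 ± 1.06 (SD) in the 8 IgG tumors and 4.94 ± 1.07 in the 6 non-responders, and 0.66 and 2.64 in the responders. The responder values lay below the lowest of the 14 other tumors, at 3.35. The log2 ratio of Cyp7b1 to Hsd3b7, the genes that make and remove the ligand, was -5.10 ± 1.23 in IgG tumors and -5.05 ± 0.94 in non-responders, and -1.68 and -3.29 in the responders, above the highest of the others at -3.84. Ch25h to Hsd3b7 separated the groups less, with responders at -1.01 and -0.65 and the lowest of the other tumors, IgG replicate 1, at -0.68. In the 11 tumors of low mitochondrial share the lowest was -0.50, above both responders. These ratios are of read counts not divided by gene length and are compared between tumors only. They reuse the gene values given above in the same 2 responders, so they do not count as separate evidence. Among single genes tested, 21.5% had both responders above all non-responders and 13.2% below. How often other pairs of genes separate in this way was not tested.

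**Figure D3:**
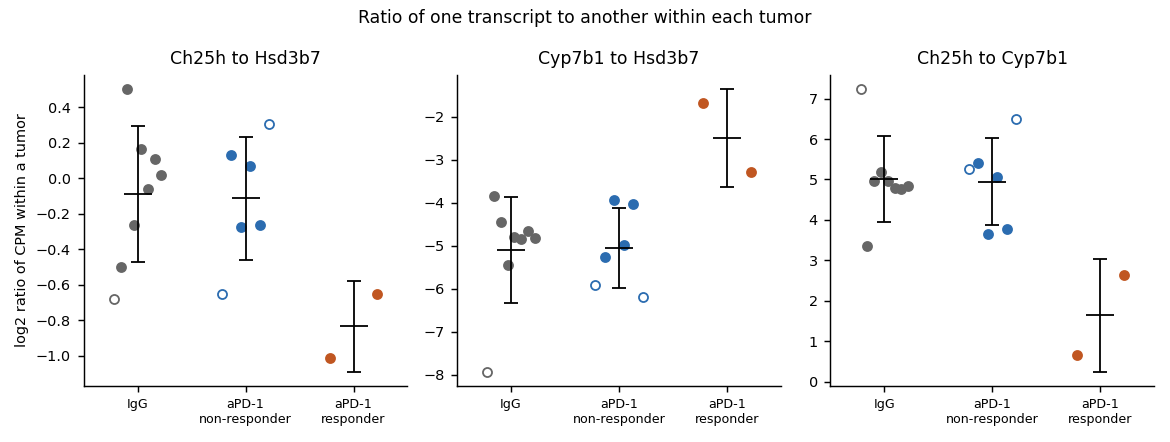
Log2 ratio of CPM of one gene to another within a tumor (y) by group (x), with a point for each tumor, open points for the 3 tumors of high mitochondrial share, and bars for mean ± SD. Responders are at 0.66 and 2.64 for Ch25h to Cyp7b1, below all 14 other tumors, and at -1.68 and -3.29 for Cyp7b1 to Hsd3b7, above all of them.

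Oxysterols also act inside the cell on the liver X receptors, so a list of 15 oxysterol sensors and their target genes was examined. Between responders and non-responders, 7 of the 15 were higher and 0 lower, with a median log2 fold change of 0.61 against 0.02 over all genes, of which 15.4% were higher and 4.34% lower. Nr1h3, which encodes liver X receptor alpha, was higher (log2 fold change 2.05 ± 0.36, edgeR adjusted p 6.48e-04), with 12.1 and 20.6 CPM in the responders and 2.17 to 7.43 CPM in the other 14 tumors. The cholesterol exporters Abca1 and Abcg1 were higher by log2 fold changes of 1.52 and 1.59, Mylip, which marks the LDL receptor for degradation, by 1.52, and the phosphodiesterase gene Smpdl3a by 1.56. Abca1 had 169 and 198 CPM in the responders and 35.5 to 107 CPM in the other tumors. Rxra, the partner receptor, rose by 0.83, and the nuclear receptor gene Rora by 1.40. Nr1h2, which encodes liver X receptor beta, had a log2 fold change of -0.10, and the lipid genes Srebf1 and Lpcat3, also targets of these receptors, -0.04 and -0.25. Apoe, the most abundant gene of the list, had 0.61 with an adjusted p of 0.170. Against IgG, where the median of all genes was -0.02, the list had a median of 0.70, with 7 of the 15 higher and 1 lower, namely Insig1, which holds back cholesterol synthesis (log2 fold change -0.84, adjusted p 0.0264).

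Of 19 further enzymes and carriers of oxysterols and bile acids, 13 had enough reads to test. Cyp7a1 and Cyp8b1, hydroxylases of bile acid synthesis, were among the 6 that did not, with at most 0.03 and 0.30 CPM. Of the 13, 4 were higher in responders than in non-responders and 1 lower, with a median log2 fold change of 0.27, where 15.4% of all genes were higher and 4.34% lower. Cyp39a1, another oxysterol hydroxylase, was higher (log2 fold change 2.06, adjusted p 0.00331), as were Hsd11b1, which reactivates glucocorticoids (1.15, adjusted p 0.0381), and the sterol carriers Scp2 (0.65) and Stard5 (0.50). Amacr, a racemase of bile acid side chains, was lower (-0.53, adjusted p 0.0103). Soat1, which esterifies cholesterol for storage, had a log2 fold change of -0.02. Against IgG, 5 were higher and 1 lower, with a median of 0.19, where 17.7% of all genes were higher and 5.17% lower.

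Gpr183 belongs to a group of receptors that place lymphocytes within tissue, and 13 other genes of that group and its ligands were tested. In responders 11 of the 13 were higher than in non-responders and 0 lower, with a median log2 fold change of 3.43, where the median of all genes was 0.02 and 15.4% were higher. Of these 13, 10 had a larger log2 fold change than the 1.61 of Gpr183. Several of them were close to 0 outside the responders, so their fitted fold changes depend on the prior count and their levels are given instead. Cxcr5, which leads B cells into follicles, had 14.1 and 51.8 CPM in the 2 responders and at most 0.36 CPM in the other 14 tumors, and its ligand Cxcl13 had 14.7 and 47.1 CPM against at most 1.80. Ccl19 and Ccl21a, ligands of Ccr7, had 19.8 and 29.7 CPM against at most 0.33, and 64.2 and 157 CPM against at most 3.11. Ccl19 met the filter on low counts only through the responders. Ccr7 itself, which leads T cells and dendritic cells into lymph nodes, rose by 3.42 on the log2 scale. The lysophospholipid receptor gene Gpr174 had 19.9 and 37.7 CPM in the responders against at most 1.59 in the other 14 tumors. The sphingosine receptor gene S1pr4 had 12.3 and 17.6 CPM against at most 0.89, and S1pr1 rose by 2.03 on the log2 scale. S1pr2, a confinement receptor of germinal centers, had a log2 fold change of -0.23 (adjusted p 0.420). Against IgG 12 of the 13 were higher, with a median of 4.05, where the median of all genes was -0.02 and 17.7% were higher.

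**Figure D4:**
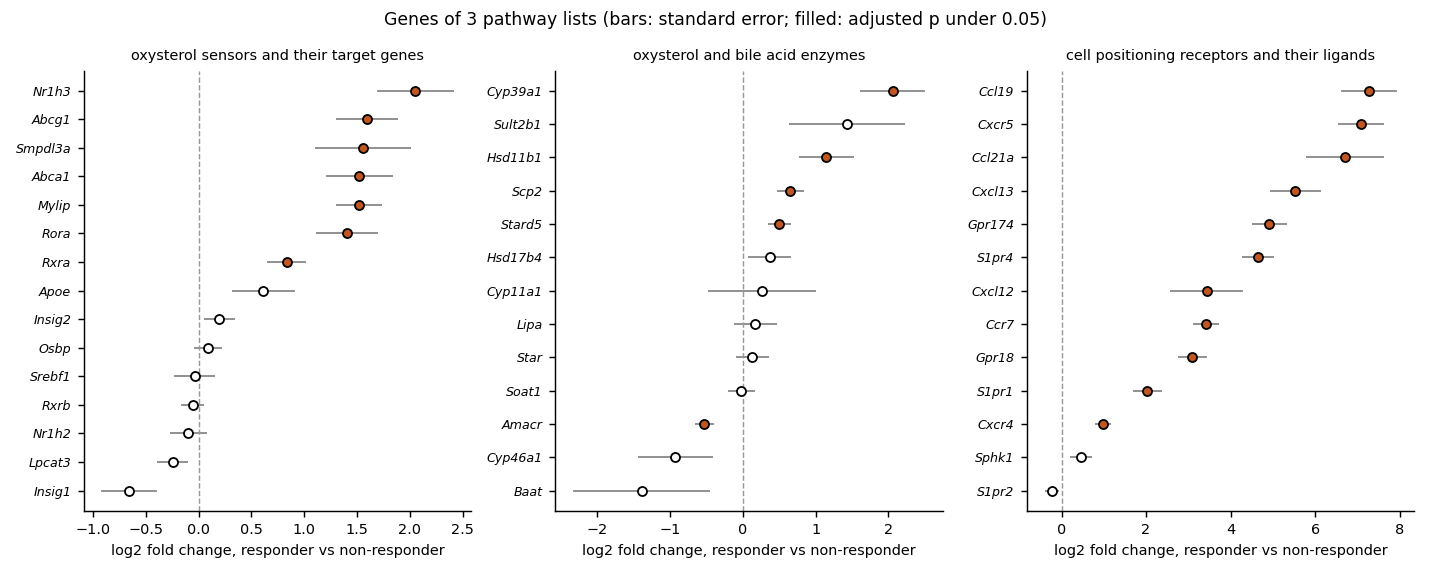
Log2 fold change of responders over non-responders (x) with its standard error for the tested genes (y) of the 3 pathway lists, where filled points have an adjusted p under 0.05. Of the sensors and targets 7 of 15 are filled to the right, of the enzymes 4 of 13 to the right and 1 to the left, and of the positioning genes 11 of 13 to the right.

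Lists of cell type markers were compared in the same way. Between responders and non-responders, 10 of 10 B cell markers, 10 of 10 T cell markers, 9 of 10 dendritic cell markers and 6 of 6 fat cell markers were higher, as were 6 of 6 epithelial and 4 of 6 plasma cell markers, where 15.4% of all genes were. Of the macrophage markers 1 of 10 was higher, with a median log2 fold change of 0.41, and of the fibroblast markers 1 of 8, with a median of 0.31. Of the remaining lists, 2 of 3 group 3 innate lymphoid, 3 of 6 blood endothelial, 1 of 5 hepatocyte and 2 of 7 interferon gamma response genes were higher, and 0 of 6 muscle, 0 of 5 keratinocyte and 0 of 8 type I interferon response genes. Of the proliferation markers 2 of 6 were lower. Some markers met the filter on low counts only through the responders, so that a higher value there was built in: 1 each of the B cell, plasma cell, epithelial, innate lymphoid and hepatocyte lists, 2 of the 4 eosinophil and 3 of the 6 lymph node stroma markers, and no count is given for those last 2 lists. Among the responders, replicate 15 had more Cyp7b1 than replicate 16 and also the higher summed B cell, fat cell and lymph node stroma markers, 1532, 1658 and 423 CPM against 396, 293 and 130.5, while their T cell markers were 311 and 296 CPM. The part of these cells in the changes of Gpr183, Cyp7b1 and Ch25h, and of the genes of the 3 pathway lists, was not tested.

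Within the 14 IgG and non-responder tumors, where the responders do not enter, the genes were related to each other and to 6 marker lists by Pearson's r and Spearman's rho of log2 CPM, with 100000 permutations. Of the 10 pairs among the 5 genes, 0 passed a Benjamini-Hochberg adjusted p of 0.05 and 1 had an unadjusted p under 0.05. That pair was Cyp27a1 and Gpr183, with r = -0.68 (permutation adjusted p 0.0744) and rho = -0.55 (0.242), and r = -0.50 without the 2 tumors of most extreme Cyp27a1. In the 11 tumors of low mitochondrial share r was 0.01, so the relation rested on the 3 others. Of 30 relations with marker lists 4 passed by r, with 10 at an unadjusted p under 0.05, and 3 of the 4 were of Cyp7b1.

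Cyp7b1 rose with the dendritic cell list (r = 0.85, permutation p 7.0e-05, adjusted p 0.0021; rho = 0.85, adjusted p 0.0042), with the fibroblast list (r = 0.79, adjusted p 0.0064; rho = 0.85, adjusted p 0.0042) and with the macrophage and monocyte list (r = 0.80, adjusted p 0.0064; rho = 0.73, adjusted p 0.0406). Without IgG replicate 1 and non-responder replicate 11, the tumors of most extreme Cyp7b1, r was 0.78, 0.90 and 0.60. In the 11 tumors of low mitochondrial share r was 0.78, 0.89 and 0.60, and the last no longer passed (permutation adjusted p 0.160). Cyp27a1 fell with the macrophage list over the 14 tumors (r = -0.86, permutation adjusted p 0.0064; rho = -0.58, adjusted p 0.161), but in the 11 tumors r was -0.14. Hsd3b7 and the T cell list had r = 0.67 (permutation adjusted p 0.0571) and rho = 0.71 (adjusted p 0.0406) over 14 tumors, r = 0.81 without the 2 tumors of most extreme Hsd3b7 and r = 0.88 in the 11 (permutation adjusted p 0.0067). Centred within group, that r was 0.52 (permutation adjusted p 0.233). Ch25h and the T cell list had r = 0.65 (permutation adjusted p 0.0571) and rho = 0.64 (adjusted p 0.0959) over 14 tumors. In the 11 tumors r was 0.73 (permutation adjusted p 0.0632), and centred within group it was 0.47 (permutation adjusted p 0.251). Ch25h and the type I interferon response list had r = 0.53, with a permutation adjusted p of 0.141.

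**Figure D5:**
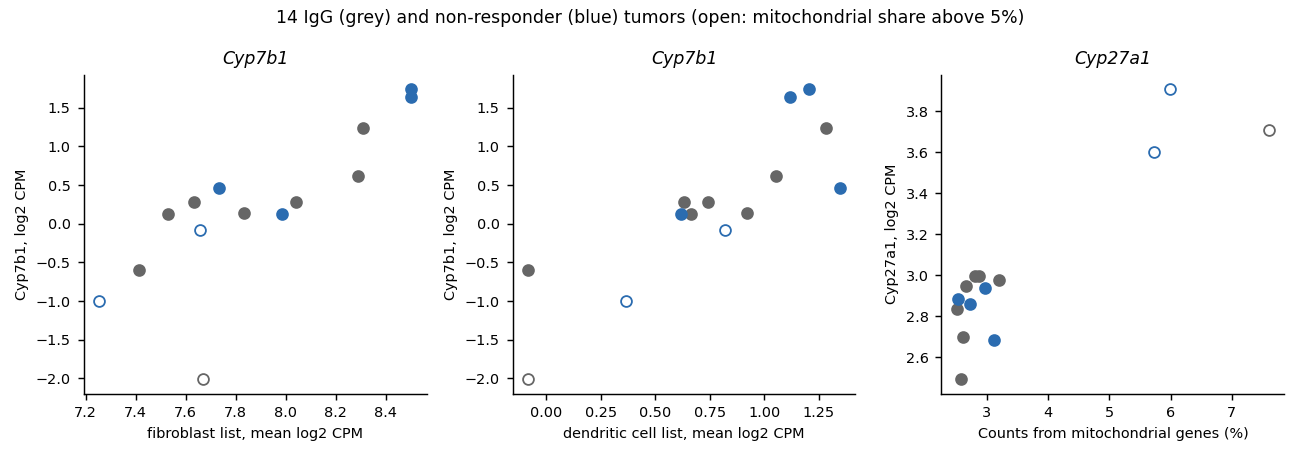
Log2 CPM of Cyp7b1 against the mean log2 CPM of the fibroblast and dendritic cell lists, and log2 CPM of Cyp27a1 against the percentage of counts from mitochondrial genes, in 8 IgG tumors (grey) and 6 non-responders (blue), with open points for the 3 tumors of high mitochondrial share. Cyp7b1 rises along both lists (r = 0.79 and 0.85), and the 3 open points are the highest for Cyp27a1.

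As a description with no test, the genes most like each of the 5 were taken from 12022 genes by Spearman's rho over the same 14 tumors. Ch25h was closest to Slamf8 (0.87), to Cxcl9, a chemokine gene induced by interferon gamma (0.84), and to A530032D15Rik (0.83). Cyp7b1 was closest to Cxcl12, the stromal chemokine gene that was itself higher in responders (0.97), to Lgi2 (0.96) and to the Fc receptor gene Fcgrt (0.95). Hsd3b7 was closest to Il3ra (0.93), Dok1 (0.92) and Irf5 (0.91), Cyp27a1 to Haus5 (0.92), Stk25 (0.89) and Taz (0.88), and Gpr183 to Cpped1 (0.95), Gmpr2 (0.94) and Mipep (0.94). In the 11 tumors of low mitochondrial share these values stayed between 0.76 and 0.94. Cxcl12 was higher in responders by a log2 fold change of 3.43, Lgi2 by 2.73 and Fcgrt by 1.61 (adjusted p 0.0091, 0.0351 and 0.0060), whereas the 3 genes closest to Gpr183 had log2 fold changes of -0.13, -0.25 and -0.06, with adjusted p of 0.462, 0.199 and 0.875.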

How the data were processed

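The deposited values are expected counts per gene, which the authors made from paired, strand-specific, poly(A)-enriched reads with STAR 2.6 and RSEM 1.3.0 on GRCm38 and Ensembl annotation. Per the submitters' processing notes only these tools were named, and whether counting used strand is not given in the sources used here. The 92 spike-in entries (at most 185 counts a tumor) were left out, and 53360 of 53465 genes matched GENCODE M21. Expected counts were rounded (7.83% of values were not whole). They were tested with edgeR 4.0.16 in R 4.3.3: TMM scaling, filterByExpr, robust dispersion and quasi-likelihood tests, with the 3 groups in 1 model (2 groups for all aPD-1 against IgG) and Benjamini-Hochberg adjustment over 18251 genes. A gene passed at an adjusted p under 0.05. Log2 CPM used a prior count of 2, and exact permutation tests were two-sided. Precision is limited by 2 responders and, for Cyp7b1, by few reads. Genes named are the 5, those of 3 pathway lists that passed (at most 5 a list, by smallest p) with the most abundant, and the 3 most alike, with further list genes named after their values were seen. Some list genes are not reported here and were left out of the counts and medians of their lists. The 5 genes and all lists were chosen with earlier results of these data known. Steps were tested on simulated data. Alternatives were DESeq2 1.42.0, median-of-ratios size factors, other filters, 2 groups per fit, a prior count of 0.5 and leaving out each tumor, and, added after the data were seen, leaving out 3 tumors of high mitochondrial share (above 5%).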

Additional observations from a re-analysis of the deposited data

Results flagged for a closer look

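Cyp27a1 in IgG replicate 1 was 13 CPM, far from the next highest of the 8 IgG tumors at 7.93 CPM, a gap of 0.683 of the group's range, which is more than Dixon's test at 95% allows. Of the 10 groups of values tested this was the 1 marked, and chance marks about 1 in 20. That tumor had the highest mitochondrial share of the 16, 7.60% of counts. Whether the 2 values are linked was not tested.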

How the results depend on the processing

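The tests of the 5 genes kept their direction and their side of the threshold in 235 of 240 fits with a tumor left out and in 112 of 115 fits under other settings. These totals include the comparisons of non-responders and of all aPD-1 tumors with IgG, where no gene passed by edgeR and little could change. The calls of Ch25h and Cyp7b1 against non-responders and of Cyp7b1 against IgG did not hold without responder replicate 15. Leaving out a tumor in turn, the log2 fold change of responders over non-responders ranged from -0.97 to -0.82 for Ch25h, from 1.20 to 3.05 for Cyp7b1 and from -0.15 to 0.47 for Cyp27a1, and against IgG from -0.59 to -0.39 for Ch25h and from 1.77 to 3.62 for Cyp7b1. The number of the 5 genes passing ranged from 1 to 3 in both responder comparisons, and the number of all genes passing from 1078 to 3564 against non-responders, from 1429 to 5674 against IgG and from 0 to 7 between non-responders and IgG, with the lowest values of the first 2 without responder replicate 15 and the 7 without IgG replicate 1. A single responder left in a fit was assumed to vary like the other groups. The exact tests passing ranged from 0 to 2, with 2 without IgG replicate 1 (Hsd3b7 between non-responders and IgG and between all aPD-1 tumors and IgG), the difference in mean log2 CPM behind them from -0.0028 to 0.59 for Cyp27a1 between responders and non-responders and from -0.031 to 0.28 for Gpr183 between all aPD-1 tumors and IgG, and the gene pairs passing from 0 to 1. Without the 3 tumors of high mitochondrial share Cyp27a1 passed against non-responders (0.57) and IgG (0.56) and turned to -0.014 between non-responders and IgG, its r with Gpr183 turned to 0.013, and 5805, 7427 and 1 of all genes passed in these comparisons. DESeq2 passed 10 genes between non-responders and IgG and 134 between all aPD-1 tumors and IgG. By mean transcript length the level per kilobase was 36.7 for Hsd3b7, 7.96 for Cyp27a1 and 5.23 for Gpr183. No paired analysis was possible because each tumor has its own replicate number and the groups share none.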
